A study of Mus musculus with 8 samples.

Results

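The genes examined here encode the proteasome and the factors that activate, inhibit or assemble it, in cardiomyocytes of newborn mice. They were taken by symbol, as every entry of the count table that starts with Psma to Psmg followed by a number and is not marked as a pseudogene, which gave 50 of 48440 entries. Of these, 49 are proteasome genes. The remaining one, Psmc3ip, shares the start of its symbol but encodes a partner of meiotic recombinases and is kept apart below. The proteasome genes comprise 7 subunits of the alpha ring and 7 of the constitutive beta ring, 3 immunosubunits, 2 tissue-specific core subunits, 9 base and 8 lid subunits, 3 entries of the PA28 alpha and beta activator, 3 other activators or inhibitors, and 7 assembly factors. The filter on low counts kept 46 of the 49 and left out Psmb8, Psmb9 and Psmb11, whose counts are given all the same.

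The RNA was that of purified cardiomyocytes of C57BL6/J pups at postnatal day 2. From each of 4 litters a male and a female heart were used, so that 4 male and 4 female libraries stand for 8 animals. No genetic change or treatment is named for any group. The comparison of the sexes is the one the design was built on, and the pairs also allow the litters to be compared, although each litter is then 1 pair of hearts and anything else those hearts share cannot be told apart from the litter.

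The proteasome is the main protease for proteins tagged with ubiquitin. Its barrel, the 20S core, is built of outer alpha rings that gate the entry and inner beta rings that hold the cutting sites, and the 19S cap on its ends binds ubiquitin (base and lid), removes it (lid) and unfolds the substrate with a ring of ATPases (base). Interferon and immune cells exchange the cutting subunits for immunosubunits, and other caps such as PA28 and PA200 open the core without ubiquitin; in heart muscle the system removes worn or misfolded sarcomere proteins.

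The library totals ran from 14226342 to 24910243 counts, the lowest being the female of litter 3. Mitochondrial transcripts took 13.4% to 15.2% of the counts in 7 libraries and 18.5% in the male of litter 4. Litter 3 stood apart over all genes, with 13.6% of 13771 tested genes higher and 14.8% lower than in the other 3 litters at an adjusted p-value under 0.05. Cardiomyocyte markers were abundant everywhere, at a summed 60060 to 77000 CPM (counts scaled to a common library size, with TMM factors), with none of the 8 at 0 in all libraries. Other cell types were present at low levels. The 10 leukocyte markers summed to 4.19 to 9.70 CPM, the 8 endothelial markers to 16.0 to 148 CPM, the 7 fibroblast markers to 32.1 to 242 CPM and the 7 erythroid markers to 98.6 to 532 CPM, and no marker was at 0 in all libraries. Fewer cells of a type and less RNA per cell cannot be told apart in such samples.

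Promoter sequences were available for 41 of the 49 proteasome genes, in 44 windows of 300 bases that run from 250 bases before to 50 bases after an annotated start (RefSeq, GRCm38.p6). They are shown because Nfe2l1, the transcription factor known to raise proteasome genes together when the proteasome is inhibited, binds antioxidant response elements. The core of that element, searched as TGACNNNGC on both strands, was found in 6 of the 44 windows (13.6%) and in 12.4% of 32851 promoters of all genes. The looser form TGANNNNGC, which includes every match of the first, was in 25 windows (56.8%) against 41.3% of all promoters. Counted by gene, it was in 23 of 41 against 12174 of 27025, and the overlapping windows of Psme2 hold the same site. The CCAAT box, searched as CCAAT on both strands, was in 14 windows (31.8%) against 37.4%. The windows had a median GC content of 57.3% and 19 CpG sites, against 52.7% and 7 over all promoters. A match of letters is a description and no sign of binding. The 6 matches of TGACNNNGC follow, each read 5′ to 3′ on the strand of its gene with the matched letters in capitals. Those of Psme4, Psmd12 and Psmc6 read as the reverse complement.
Psmb5: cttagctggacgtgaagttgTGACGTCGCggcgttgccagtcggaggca
Psmb6: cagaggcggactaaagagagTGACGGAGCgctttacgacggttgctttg
Psmd9: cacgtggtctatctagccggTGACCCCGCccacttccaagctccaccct
Psme4: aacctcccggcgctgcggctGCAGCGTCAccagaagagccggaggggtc
Psmc6: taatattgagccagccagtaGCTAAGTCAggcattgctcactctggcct
Psmd12: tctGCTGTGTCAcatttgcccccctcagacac
The match starts at -47 from the annotated start in Psmb5 (chr14:54618014-54618062, minus strand), at -9 in Psmb6 (chr11:70525328-70525376, plus strand), at -31 in Psmd9 (chr5:123228139-123228187, plus strand) and at -7 in Psme4 (chr11:30771748-30771796, plus strand). In Psmc6 it starts at -227 (chr14:45329577-45329625, plus strand) and in Psmd12 at -247 (chr11:107479278-107479309, plus strand), at the far end of the window.

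Newborn cardiomyocytes held RNA for a complete constitutive proteasome. Every alpha ring, constitutive beta ring, base and lid subunit was detected in all 8 libraries, and the summed level of the 49 proteasome genes was 3998, 3778, 3648 and 4298 CPM in the males of litters 1 to 4 and 3938, 3616, 3803 and 4136 CPM in the females. Litter 4 gave the highest sums in both sexes. The sum varied by 6.08% (coefficient of variation over 8 libraries). Single members varied by a median of 8.93%, from 4.37% for Psmd11 of the lid to 30.1% for Psma8, while the median over all tested genes was 13.3%.

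Levels of different genes were compared per length, as TPM (counts per base of the longest coding transcript, scaled to a common total in each library). The constitutive beta ring had a median of 218 TPM, the alpha ring 170, the base 124, the lid 109 and the assembly factors 20.8. In the beta ring, Psmb6, the caspase-like subunit beta1, was highest at 379 ± 21.4 TPM (SD, n = 8), and Psmb7, the trypsin-like beta2, had 243 ± 14.5 TPM. Psmb5, the chymotrypsin-like beta5 and the site that bortezomib and carfilzomib bind, was lowest of the ring at 85.4 ± 5.01 TPM, and the ranges of Psmb5 and Psmb6 over the libraries did not overlap. In the alpha ring the levels ran from 52.3 ± 2.78 TPM for Psma3 (alpha7) to 232 ± 12.8 TPM for Psma6 (alpha1), a 4.44-fold span. That order depends on the length used, as the transcripts of Psma3 and Psma2 are 2846 and 2911 bases long. With coding lengths in place of transcript lengths the lowest alpha subunit was Psma5, and the span 2.48-fold. Psma7 was then highest at 174 ± 6.64 TPM, beside 169 ± 10.2 for Psma6. In the beta ring Psmb5 stayed lowest with coding lengths, at 49.8 TPM. Psmb6 then had 218 ± 13.1 TPM and Psmb1, the beta6 subunit, 214 ± 12.8, so that their spreads overlapped. Of the 100-base windows of Psmb5, 24.9% also occur in other annotated genes. The same holds for 27.5% of Psma5, 20.6% of Psma3, 20.0% of Psmb7 and 18.0% of Psmb3, so the counts of all these subunits are uncertain.

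**Figure D1:**
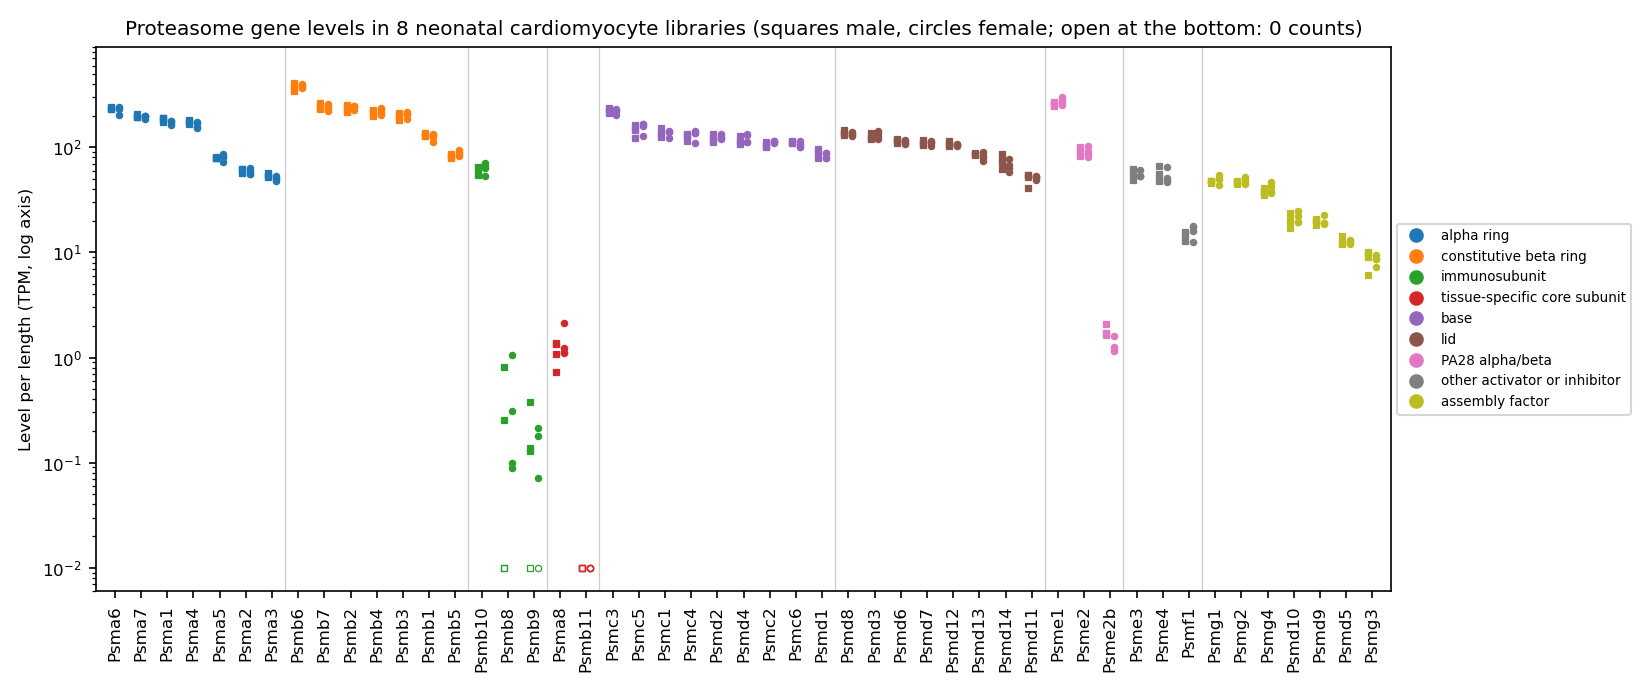
Level per length (TPM, log axis) of the 49 proteasome genes in 8 libraries, by class; squares are male and circles female libraries, and open symbols at the bottom mark 0 counts. The alpha and constitutive beta ring, base and lid lie between 41.4 and 408 TPM in every library, while Psmb8, Psmb9, Psma8 and Psme2b lie at or under 2.13 TPM and Psmb11 has no counts.

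Of the 3 immunosubunits, Psmb10 was expressed and Psmb8 and Psmb9 were close to the limit of detection. Psmb10, the beta2i subunit that takes the place of Psmb7, had 41.0, 39.2, 33.8 and 40.2 CPM in the males of litters 1 to 4 and 45.6, 39.0, 41.4 and 36.4 CPM in the females. The sexes overlapped, and no litter stood apart. Per length it stood at 25.4% ± 2.27 (SD, n = 8) of Psmb7, from 22.6% to 28.5% between libraries. With coding lengths the value was 29.1%, and the windows that Psmb7 shares make it uncertain.

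Psmb8, the beta5i subunit that replaces Psmb5, had counts of 5, 0, 0 and 13 in the males of litters 1 to 4 and of 6, 18, 1 and 2 in the females. Its level per length was 0.384% ± 0.473 of Psmb5 (SD, n = 8), so that the spread was as large as the level. Psmb9, the beta1i subunit that replaces Psmb6, had 0, 2, 2 and 5 counts in males and 0, 1, 2 and 3 in females, and 0.0369% ± 0.0324 of Psmb6. Both genes had 0 counts in some libraries, and neither entered the main tests. A floor of 3 counts corresponds to 0.120 to 0.206 CPM in these libraries. All 3 immunosubunits are known targets of interferon, and the leukocyte markers named above were low; their part in the few Psmb8 and Psmb9 counts was not tested. Exons of Psmb9 overlap those of Tap1 on the opposite strand over 5.79% of their length, those of Psmb8 overlap Gm20496 over 14.7%, and whether counting used the strand is not known.

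The tissue-specific core subunits were near or at 0. Psmb11, the beta5t subunit of the thymus, had 0 counts in all 8 libraries, which allows up to 0.206 CPM in the shallowest. Psma8, the testis form of alpha4, had counts of 15, 26, 25 and 18 in the males of litters 1 to 4 and of 22, 20, 25 and 26 in the females. Its level per length was 0.646% ± 0.203 of Psma7, the alpha4 of other tissues.

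Among the activators, Psme1 was as abundant as the core. Psme1, the alpha chain of the PA28 cap, had 268 ± 18.7 TPM, and its partner Psme2, the beta chain, 90.8 ± 7.73 TPM (SD, n = 8), which is 34.0% ± 3.14 of Psme1. In CPM, Psme1 had 139.5, 142.5, 135.1 and 151.4 in male libraries and 145.5, 151.0, 133.1 and 174.4 in female ones, with litter 4 highest in each sex; it was called higher in litter 4, which held in 3 of 14 alternatives. Psme2 shares 44.5% of its 100-base windows with its copy Psme2b, listed at 1.54 ± 0.316 TPM, so the split of reads between the pair is uncertain. Psme3, the nuclear PA28 gamma, had 55.6 ± 4.73 TPM, with 69.2, 79.5, 74.1 and 71.8 CPM in the males of litters 1 to 4 and 69.9, 76.4, 67.4 and 73.1 in the females, which overlapped. Psme4, which encodes PA200, had 54.0 ± 7.66 TPM. Psmf1, the inhibitor PI31, had 15.1 ± 1.93 TPM. The order of these 3 depends on the length used, since coding lengths gave 99.9 TPM for Psme3, 32.6 for Psme4 and 36.5 for Psmf1.

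The chaperones that pair the alpha subunits during assembly had low mean levels per length, though those of Psmg1 and Psmg2 overlapped with the lowest alpha subunit, Psma3, over the libraries. Psmg1 and Psmg2, which act as a pair, had 48.4 ± 2.95 and 47.5 ± 2.41 TPM. Psmg3 and Psmg4 also act as a pair, but were listed at 8.61 ± 1.36 and 39.5 ± 3.77 TPM. In CPM, Psmg1 had 24.4, 23.5, 22.6 and 27.5 in the males of litters 1 to 4 and 22.5, 24.5, 26.9 and 27.03 in the females. Psmg2 had 29.7, 27.5, 29.4 and 33.5 CPM in males and 29.5, 30.7, 32.1 and 30.5 in females. Psmg4 had 10.04, 10.02, 9.11 and 12.5 CPM in males and 10.04, 11.1, 12.4 and 11.1 in females. For these 3 genes the sexes overlapped, and no litter was called. Psmg3 had 4.30, 2.54, 4.08 and 4.36 CPM in males and 3.74, 3.598, 3.03 and 4.37 in females, and shares 17.7% of its windows with an overlapping annotated gene. The chaperones of the base, Psmd5, Psmd9 and Psmd10, had 12.6, 19.7 and 20.8 TPM. With coding lengths these were 18.9, 39.6 and 22.1, and Psmg1 and Psmg2 had 30.0 and 47.3 TPM. Of the exonic length of Psmd9, 25.5% overlaps antisense genes, among them Hpd, so its level is uncertain.

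No proteasome gene passed the threshold between male and female cardiomyocytes. In edgeR's quasi-likelihood test, 0 of 46 members had an adjusted p-value under 0.05, where 0.0436% of all tested genes were called. An unadjusted p-value under 0.05 was found for 0 members and for 306 of 13771 genes. With the litter as a block, 0 of 46 members were called, against 0.211% of all genes. In that fit 4 members and 1592 of 13771 genes had an unadjusted p-value under 0.05. DESeq2, without the block, also called 0 members. The log2 fold changes, male minus female, ran from -0.27 for Psma8 to 0.45 for Psme2b, the members with the fewest counts, with a median of 0.02, and the median of all genes was -8e-04. The median of members ranged from -0.04 without the litter 4 male to 0.05 without the litter 4 female, and was -0.03 without the litter 2 female, with 16 to 33 of 46 above 0 when 1 library was left out.

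The cutting subunits had overlapping ranges in the sexes. Psmb5 had 37.9, 33.8, 35.3 and 40.0 CPM in the males of litters 1 to 4 and 41.7, 36.2, 35.6 and 41.7 CPM in the females, which is -0.08 on the log2 scale (SE 0.09, edgeR adjusted p = 0.9996). The male was lower in each of the 4 litters, and the ranges of the sexes overlapped. Psmb6 had 158, 139, 128 and 167 CPM in males and 153, 137, 144 and 165 in females (log2 fold change -0.02, SE 0.10). Psmb7 had 149, 130, 125 and 158 CPM in males and 145, 121, 138 and 141 in females (0.05, SE 0.10). All 7 alpha ring subunits had a fitted value above 0, from 0.01 to 0.14, none of them called; in litter 3 only 2 of the 7 were higher in the male.

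Within litters, the male and the female differed in the same direction in all 4 litters for 12 of 46 members (26.1%), against 20.3% of all genes. The male was the higher one for Psma1, Psma3, Psmd1, Psmd8, Psmd12, Psmd13, Psmd14 and Psme2b, and the lower one for Psmb5, Psmc2, Psmc5 and Psmd4. Psmd14, the lid enzyme Rpn11 that cuts ubiquitin off the substrate, had the largest such difference among members of high count, at 0.18 (SE 0.13) and, with the litter as a block, 0.18 (SE 0.06, adjusted p = 0.307). The number of members higher in the male was 29, 31, 14 and 32 of 46 in litters 1 to 4, so litter 3 went against the other litters. Over all genes it was 7030, 6840, 6826 and 7191 of 13771. With the litter as a block, 5 of 7 fibroblast markers were called higher in males and 1 of 8 endothelial markers lower; their part in the subunit values was not tested.

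**Figure D2:**
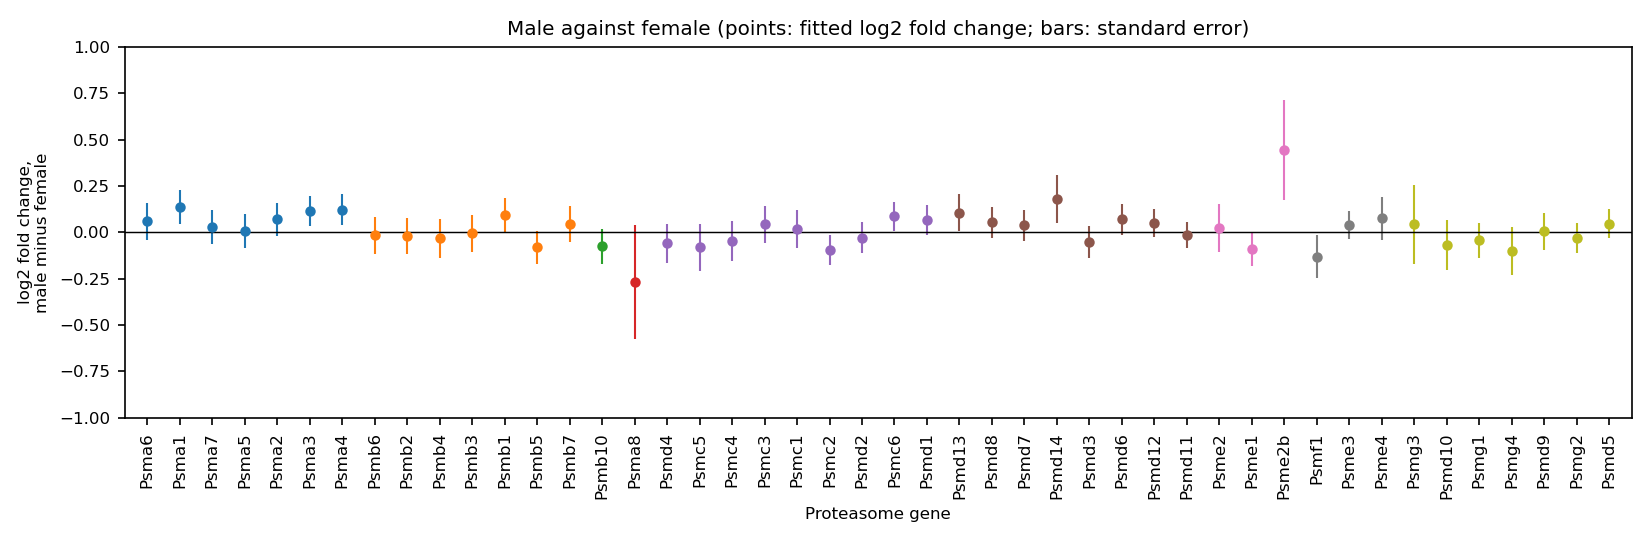
Fitted log2 fold change, male minus female, with its standard error for the 46 tested proteasome genes, coloured by class as in the plot of levels. All but Psme2b and Psma8 lie between -0.13 and 0.18, and none passed the threshold.

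Single subunits differed between litters. In the litter test, which takes the 4 litters together with sex as a term, 14 of 46 members had an adjusted p-value under 0.05 (30.4%), against 32.1% of all tested genes. The count was 8 with library totals alone (34.3% of all genes), 6 without the male or without the female of litter 1 (21.5% and 21.4%), 9 without the litter 2 female (28.7%), 9 without the litter 3 male (24.1%) and 8 without the litter 4 male (27.7%). The called members were Psma1 and Psma6 of the alpha ring, Psmb2, Psmb3 and Psmb6 of the beta ring, Psmc4, Psmc5 and Psmd4 of the base, Psmd13 and Psmd14 of the lid, the activators Psme2 and Psme4, the inhibitor Psmf1 and the base chaperone Psmd10. The median distance between the highest and the lowest litter was 0.26 on the log2 scale for members and 0.37 for all genes. Litter 4 was the highest for 36 of 46 members (78.3%), including all 14 constitutive core subunits, where it was the highest for 25.6% of all genes. With libraries scaled by their totals alone, litter 4 was the highest for 22 of 46 members and 10 of 14 core subunits, against 2105 of 13771 genes.

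**Figure D3:**
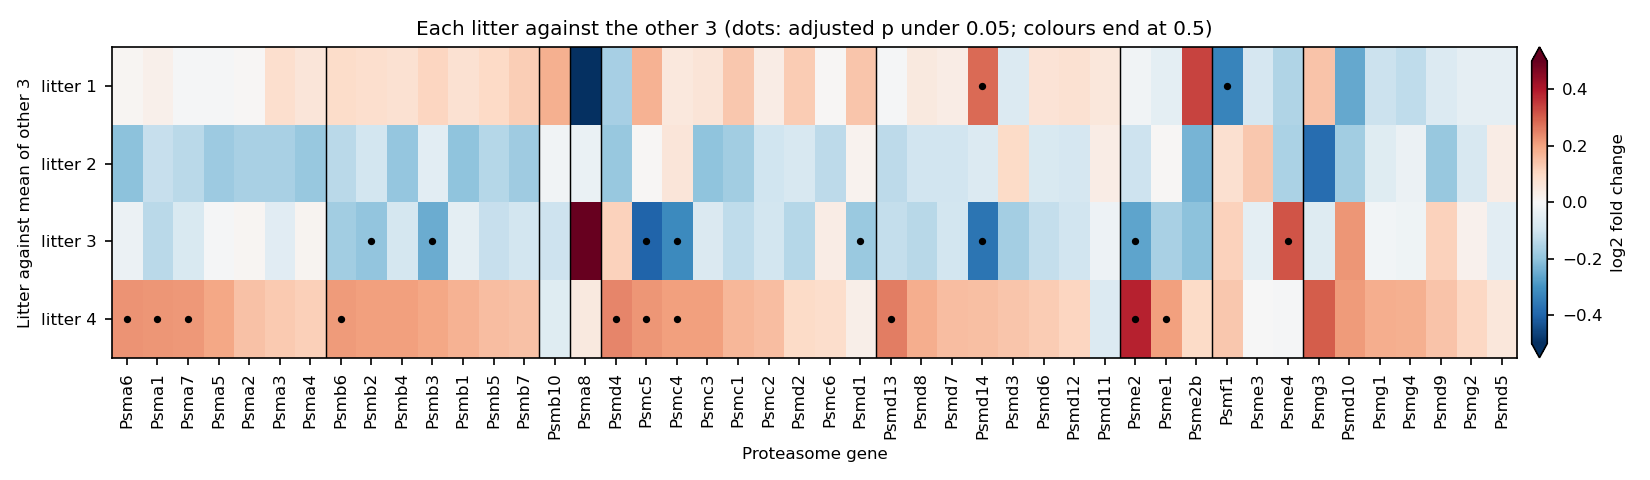
Log2 fold change of each litter against the mean of the other 3 for the 46 tested proteasome genes, ordered by class; dots mark an adjusted p-value under 0.05 and colours end at 0.5 in either direction. Litter 4 has 10 dots, all higher, and litter 3 has 7 lower and 1 higher.

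In litter 4, single subunits of the core, base, lid and PA28 cap were higher by small amounts. Against the mean of the other 3 litters, 10 of 46 members were higher (21.7%) and 0 lower, where 4.71% of all genes were called higher and 5.8% lower. Values above 0 were fitted for 42 of 46 members, with a median of 0.15, and the median of all genes was 0.01. Called higher were Psma1, Psma6 and Psma7 of the alpha ring, Psmb6 of the beta ring, Psmc4, Psmc5 and Psmd4 of the base, Psmd13 of the lid, and Psme1 and Psme2 of the PA28 cap. Their log2 fold changes ran from 0.21 to 0.38. None of the 7 assembly factors was called, and all 7 lay above 0.

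Psme2 changed most in litter 4. It had 41.5, 41.7, 37.3 and 53.5 CPM in the males of litters 1 to 4 and 43.3, 39.4, 37.3 and 51.0 CPM in the females. Both libraries of litter 4 lay above the other 6, by 0.38 on the log2 scale (SE 0.06, edgeR adjusted p = 0.00564). Without the male of litter 4 the adjusted p-value was 0.0651.

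Psmd4, the base subunit Rpn10 that binds ubiquitin chains, had 91.5, 92.3, 106 and 114 CPM in the males of litters 1 to 4 and 96.5, 93.4, 111 and 119 CPM in the females. Litters 3 and 4 were above litters 1 and 2 in both sexes without overlap. The litter 4 difference was 0.24 (SE 0.06, adjusted p = 0.0199), and it was lost with library totals alone and without any 1 library of litter 1 or 4, with adjusted p-values up to 0.125. Psmd13, the lid subunit Rpn9, had 83.3, 84.0, 79.5 and 94.3 CPM in males and 79.9, 69.4, 74.7 and 92.5 in females, with both litter 4 values highest (0.25, SE 0.07, adjusted p = 0.0308). It was lost in the same settings and without the female of litter 2, with adjusted p-values up to 0.248. Of its windows, 12.9% also occur in Sirt3.

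The call in litter 4 depends on the scaling and on single libraries. It fell from 10 to 6 members with DESeq2's size factors and to 1 with library totals alone, while the share of all genes called in either direction was 10.5%, 10.6% and 12.8%. With totals alone 39 of 46 members still lay above 0, with a median of 0.08 where that of all genes was -0.06. Leaving out the litter 1 male or female gave 1 member each (5.54% and 5.33% of all genes), the litter 2 male 5 (7.99%), its female 3 (9.33%), the litter 3 male 4 (9.01%), the litter 4 male 0 (2.3%) and its female 1 (3.11%). The TMM factors of the litter 4 libraries were 0.951 and 0.971, the mitochondrial share was high in its male, and 6 of 7 fibroblast markers and 3 of 8 cardiomyocyte markers were called higher in this litter, with 2 cardiomyocyte and 1 of 2 tested leukocyte markers lower. Their part in the result was not tested.

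In litter 3, single subunits of the base, lid, beta ring and PA28 cap were lower, and PA200 was higher. Of 46 members, 7 were lower and 1 higher, where 14.8% and 13.6% of all genes were called. The lower ones were Psmc5, Psmc4 and Psmd1 of the base, Psmd14 of the lid, Psmb3 and Psmb2 of the beta ring, and Psme2. Psmd1 and Psmb2 kept their calls in 5 and 6 of 13 alternatives, and Psmb3 and Psme2 theirs in 11 each. The share of lower members, 15.2%, was close to that of all genes. The median over members was -0.09 and 36 of 46 lay below 0, as did 6884 of 13771 genes. Without the male of litter 3 the median was -0.01, with 22 of 46 above 0; it was -0.15 without its female and -0.05 with library totals alone.

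Psmc5, the ATPase Rpt6 of the base, had 103, 90.8, 75.9 and 108 CPM in the males of litters 1 to 4 and 108, 102, 80.4 and 109 CPM in the females. Both libraries of litter 3 lay below the other 6. The log2 fold change was -0.40 (SE 0.06, edgeR adjusted p = 0.000668), and it remained past the threshold in 13 of 13 alternatives. Psmc5 lies at chr11:106256154-106263120 on the plus strand (GENCODE M21 on GRCm38), and none of its windows occurs in another gene.

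Psmc4, the ATPase Rpt3, had 90.3, 90.7, 78.0 and 102 CPM in males and 96.9, 97.3, 76.2 and 101 CPM in females. Litter 3 was again the lowest in both sexes (log2 fold change -0.32, SE 0.06, adjusted p = 0.00298, and 0.0668 without the female of litter 3). The other ATPases of the base, Psmc1, Psmc2, Psmc3 and Psmc6, were not called in litter 3. A difference between them and Psmc4 or Psmc5 was not tested.

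Psmd14 had 64.8, 53.4, 45.4 and 63.8 CPM in the males of litters 1 to 4 and 58.0, 48.8, 42.4 and 51.3 CPM in the females. Litter 3 was lowest in each sex, and litter 1 highest. The log2 fold change was -0.36 in litter 3 (SE 0.07, adjusted p = 0.00267) and 0.28 in litter 1 (SE 0.07, adjusted p = 0.0158). The first was lost without the male of litter 3 (0.0598), and the second without either library of litter 1 or without litter 3 (up to 0.223). The gene lies at chr2:61711694-61800376 on the plus strand, and shares no windows.

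Psme4 was the member that rose in litter 3. It had 161, 173, 202 and 169 CPM in the males of litters 1 to 4 and 155, 142, 201 and 171 CPM in the females. Both libraries of litter 3 were above the other 6, and almost equal to each other. The log2 fold change was 0.31 (SE 0.07, edgeR adjusted p = 0.00484, and 0.0964 without the female of litter 3). PA200, its product, caps the core in the nucleus and is known for the degradation of acetylated histones.

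The count in litter 3 was 3 without its male and 3 without its female, where the share of all genes called in either direction went from 28.3% to 15.9% and 12.2%. Markers moved in this litter too: 6 of 7 fibroblast, 5 of 8 endothelial and 3 of 8 cardiomyocyte markers were lower and 2 of 6 tested erythroid markers higher. Their part in the subunit values was not tested.

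**Figure D4:**
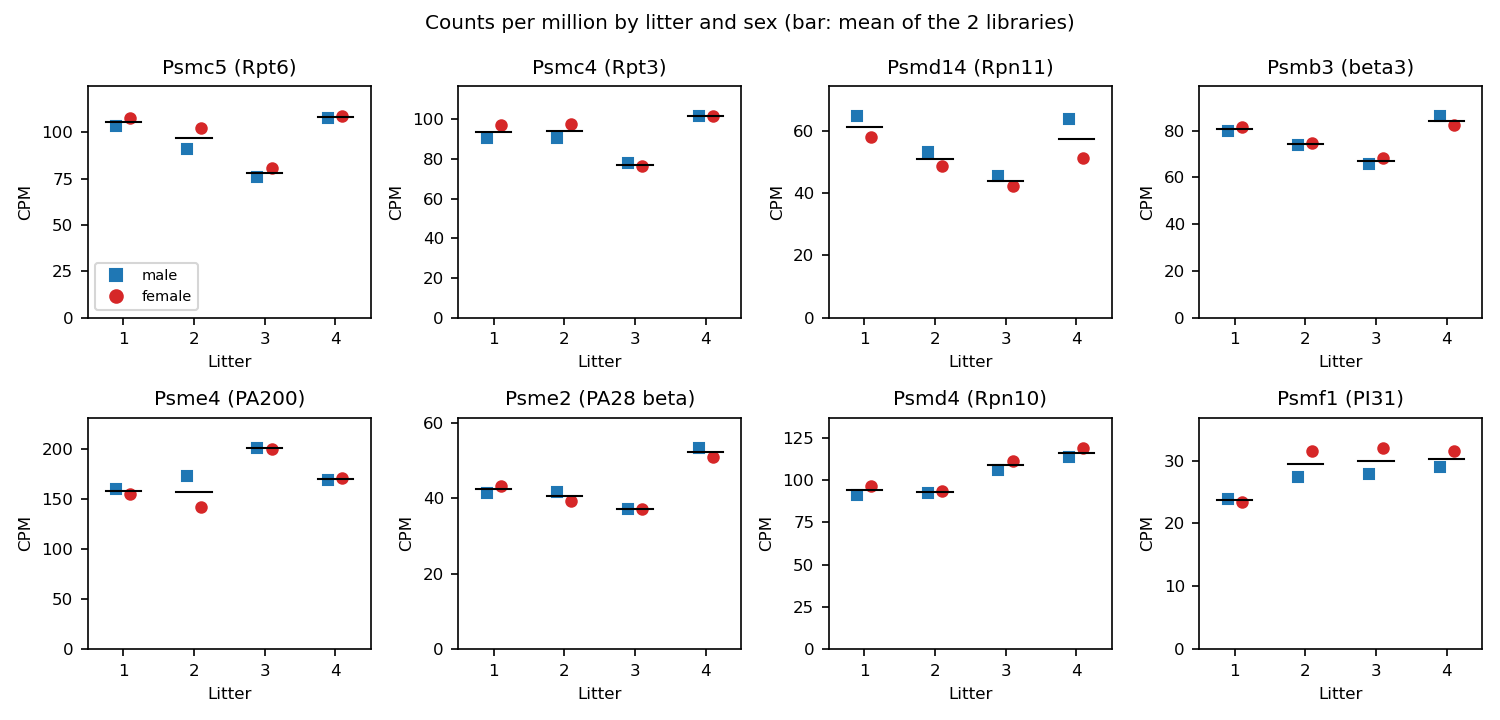
CPM of 8 proteasome genes by litter, with the male library as a square, the female as a circle and their mean as a bar; all axes start at 0. Psmc5, Psmc4, Psmd14 and Psmb3 are lowest in litter 3, Psme4 is highest there, Psme2 is highest in litter 4 and Psmf1 is lowest in litter 1.

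In litters 1 and 2, few or no members passed the threshold. In litter 1, 1 member was higher and 1 lower of 46, where 7.86% and 5.41% of all genes were called. The higher one was Psmd14 (above). The lower one was Psmf1, with 23.9, 27.3, 27.9 and 28.9 CPM in the males of litters 1 to 4 and 23.4, 31.5, 32.1 and 31.5 CPM in the females, which is -0.33 on the log2 scale (SE 0.08, edgeR adjusted p = 0.0155). Both litter 1 values lay below the other 6. Without either litter 1 library, neither Psmf1 (adjusted p up to 0.357) nor Psmd14 was called. In this litter 3 of 8 cardiomyocyte and 3 of 7 fibroblast markers were called higher, and their part in the result was not tested.

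In litter 2, 0 of 46 members were called in either direction by edgeR, where 3.3% of all genes were higher and 0.879% lower; 15 members and 2466 of 13771 genes had an unadjusted p-value under 0.05. Values below 0 were fitted for 37 of 46 members, with a median of -0.10, among them all 14 constitutive core subunits; 6708 of 13771 genes lay below 0, with a median of 0.0043. In this litter all 8 endothelial markers were higher, with the highest sums in its female (148 CPM) and male (81.4 CPM). Of 7 fibroblast markers, 5 were higher too, with the highest sum in its male (242 CPM). Their part in the subunit values was not tested.

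Psmc3ip, which matched the symbol pattern without being a subunit, moved more than any subunit that was called. It had 7.75, 5.37, 3.82 and 6.42 CPM in the males of litters 1 to 4 and 7.32, 6.07, 4.13 and 6.55 CPM in the females. Litter 1 was highest and litter 3 lowest in both sexes, with log2 fold changes of 0.52 (SE 0.13, edgeR adjusted p = 0.0217) and -0.72 (SE 0.15, adjusted p = 0.0039). The first was lost without either library of litter 1 (up to 0.304) and the second without the male of litter 3 (0.0543). Exons of Mlx overlap 21.2% of its exonic length on the opposite strand, so reads of the pair cannot be told apart without the strand setting.

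Genes that work with the proteasome were taken from a list of 25 ubiquitin genes, shuttle factors, associated enzymes and regulators found in the table. None was called by sex. In the litter test 11 of 25 were called (44%, against 32.1% of all genes), 7 with library totals alone and 3 to 7 with a library left out, settings that were added for this list after the data were seen and under which 34.3% and 21.4% to 29.6% of all genes were called. In litter 4, 5 were higher and 0 lower, where 4.71% and 5.8% of all genes were called. Among the higher ones were Rps27a, which encodes ubiquitin fused to a ribosomal protein, the lid protein gene Shfm1 (Sem1) and the deubiquitinase gene Uchl5, with log2 fold changes from 0.29 to 0.33. With library totals alone 3 of the 25 were higher and 1 lower in litter 4, where 12.8% of all genes were called in either direction. Without the male of litter 4 no partner call remained in that litter, and the share of all genes called fell too. In litter 3, 3 were higher and 5 lower, where 13.6% and 14.8% of all genes were called; among the lower ones was Zfand2a at -0.30 (adjusted p = 0.0187, and up to 0.163 without either library of litter 3), and among the higher ones the oxidative stress factor Nfe2l2 at 0.24 (adjusted p = 0.026, and up to 0.385 without the female of litter 1 or 3). Fewer of the 25 were called in litter 3 when a library of litter 1 or 3 was left out, and the share of all genes called fell too. Usp14 was the 1 gene of the list called in litter 1, higher by 0.21, where 7.86% of all genes were called higher. That call was kept in 5 of 10 alternatives. Rps27a was the 1 gene called in litter 2 (-0.33), where 0.879% of all genes were called lower, and its call was lost without either library of litter 2.

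Shfm1 had 131, 125, 120 and 174 CPM in the males of litters 1 to 4 and 133, 117, 116 and 138 CPM in the females. Litter 4 was highest in both sexes (0.33, adjusted p = 0.0149, and 0.236 without the male of litter 4). Pomp, the maturation factor of the core, had 64.5, 53.9, 51.4 and 70.2 CPM in males and 62.9, 53.8, 55.0 and 60.7 in females; it passed the litter test (edgeR adjusted p = 0.0287) and no comparison of 1 litter with the others, and was lost with library totals alone or without 1 of 5 libraries (up to 0.0772). Nfe2l1 had 305, 304, 293 and 325 CPM in males and 300, 320, 312 and 309 in females, and did not pass the litter test (adjusted p = 0.761).

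Of 11 genes of antigen presentation, which immunosubunits serve, 1 passed the litter test (9.09%, against 32.1% of all genes) and 0 were called by sex (0.0436% of all genes). H2-K1, a class I heavy chain, had 17.5, 17.8, 30.3 and 28.4 CPM in the males of litters 1 to 4 and 18.6, 17.4, 27.04 and 23.4 in the females. Litters 3 and 4 were above litters 1 and 2 without overlap (edgeR adjusted p = 0.000853). Psmb10 had -0.10 in litter 3 and -0.06 in litter 4, neither of them called. Tap1, the peptide transporter beside Psmb9, had 0.52 to 1.30 CPM and was not called. Nlrc5, the activator of class I genes, had counts of 11, 11, 1 and 11 in the males of litters 1 to 4 and of 18, 13, 3 and 8 in the females. It was lower in litter 3 (edgeR adjusted p = 0.0277), a call that was lost without either library of litter 3, the female of litter 1 or the male of litter 4 (up to 0.311).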

How the data were processed

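RNA of purified cardiomyocytes was sequenced in 8 libraries. The labels give poly(A) RNA as the molecule but name a stranded kit for total RNA, a conflict that the sources used here do not settle. The authors deposited raw read counts per gene symbol, 1 column per library. STAR 2.7.3a and mm10 are named in the submitters' processing notes; the counting program, the annotation and the strand setting are not given in the sources used here.

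Counts were analysed with edgeR 4.0.16 and DESeq2 1.42.0 (R 4.3.3) and pandas 2.3.3. After filterByExpr by sex, 13771 genes remained, and TMM factors were applied. Male and female libraries were set against each other in edgeR's quasi-likelihood test with no litter term (6 residual degrees of freedom). The litter test and each litter against the mean of the other 3 came from 1 fit with sex as a term (3 residual degrees of freedom); those 4 rest on the same libraries. Benjamini-Hochberg adjustment covered all tested genes, and a call is an adjusted p-value under 0.05. SE is the size of the fitted change over the square root of F. The scripts were tested on simulated counts.

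TPM used the longest coding transcript in GENCODE M21 for 23879 of 24849 detected entries, and all 50 symbol matches had a length. APPRIS principal transcripts and coding lengths were added after the data were seen. Sequence sharing is the share of a transcript's 100-base windows found in another gene's transcripts. Zero counts were given a floor of 3 counts; it covers counting error only.

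The labels number samples by litter. After removal of the sex means, both libraries of 1 litter correlated at 0.367 to 0.696 across genes, and pairs from different litters at -0.482 to 0.27, so the numbers pair the samples and the litter block was an alternative. Libraries of the same sex differed by 10.4 to 49.1 chi-square per degree of freedom, so none repeated another. The members, lists and tests were chosen with earlier results of these data known. Library values were given for the cutting and tissue-specific subunits, activators, Psmf1, Psmd4, Psmd14 and the Psmg genes, for the 5 members with the smallest p-value in the litter test, and for the 3 with the largest called change in each litter; Psmc4 falls under the litter test among proteasome genes. Values of some genes of the lists are not reported here.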

Additional observations from a re-analysis of the deposited data

Results flagged for a closer look

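In 3 of 42 groups of 4 libraries tested (2 sexes for each named gene), 1 library lay far from the other 3 of its sex by Dixon's criterion; chance gives this in about 1 of 20 groups. Psma8 had 0.602 CPM in the male of litter 1 and 1.01 to 1.08 CPM in the other males. Psmf1 had 23.4 CPM in the female of litter 1 and 31.5 to 32.1 CPM in the other females. Psmg3 had 2.54 CPM in the male of litter 2 and 4.08 to 4.36 CPM in the other males.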

How the results depend on the processing

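The sex comparison called 0 members under every alternative run, including the replicate block, under which it called 0 and changed no call of a member. Of the litter results, called members kept their direction under all alternatives. The litter test called 14 members, 8 with library totals alone, 10 with DESeq2, 12 with a mean of at least 50 counts and 15 with mitochondrial genes left out. With no filter on low counts, which lets Psmb8 and Psmb9 in, it called 19 of 48 members. It called 6 to 14 with a litter left out, while 13.7% to 36.7% of all genes were called over these settings, 23% with no filter. Fewer members were called with any 1 library left out, as over all genes. Litter 1 called 2 members where 13.3% of all genes were called in either direction, and 1 (7.03%) without litter 3. Litter 2 called 0 (4.18%), and a call appeared only without the male of litter 3. Litter 3 called 8 (28.3%), 10 with a mean of at least 50 counts (32.5%) and 7 with library totals alone (29.9%). Litters 1 and 3 lost all or most of their calls without 1 of their own libraries, and the share of all genes called fell too. Litter 4 called 10, with 6 under DESeq2's size factors, 1 with library totals alone, and 0 to 9 with a library or litter left out, while 2.3% to 14.3% of all genes were called. A fit without 1 library leaves a litter with 1 heart, which is assumed to vary like the others; apart from that the cause of these shifts was not tested. Psmc5 in litter 3 stayed past the threshold in 13 of 13 alternatives, Psmd4 in the litter test in 18 of 18, Psme2 in litter 4 in 13 of 14, and Psme4 in litter 3 in 12 of 13. With coding lengths, chosen after seeing the data, the median level per length moved for all 5 classes compared, from 20.8 to 30.0 TPM for the assembly factors and from 218 to 174 TPM for the beta ring.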
